A study of Mus musculus with 12 samples.

Results

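The clustered protocadherins are cell surface adhesion proteins of the cadherin superfamily whose genes stand side by side on mouse chromosome 18. Members were taken as every gene whose symbol in the deposited count tables begins with Pcdha, Pcdhb or Pcdhg. This gave 58 of 55357 genes, namely 14 in the alpha cluster, 22 in the beta cluster and 22 in the gamma cluster. The alpha cluster holds 12 alternate members and the C-type members Pcdhac1 and Pcdhac2. The gamma cluster holds 12 members of the A subset, 7 of the B subset and the C-type members Pcdhgc3, Pcdhgc4 and Pcdhgc5.

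RNA was sequenced from the cortex with the hippocampal formation of mouse embryos at stage E17.5, with rostral and caudal parts kept apart. The knockout group carried a Nestin-Cre transgene, which acts in neural progenitors and their progeny, and floxed Egfr (Egfr F/F). The control group was Egfr F/+. The titles name Cre for the knockout libraries only, and whether the controls carried Cre is not given in the sources used here, so the loss of Egfr and the presence of Cre cannot be told apart. The titles give 3 embryos per genotype and 4 groups of 3 libraries: knockout rostral and knockout caudal with the title numbers 5, 2 and 7, and control rostral and control caudal with the title numbers 1, 3 and 9. A further number stands before these in the titles, 4858 for embryos 5 and 1 and 4692 for embryos 2, 7, 3 and 9, and the sources used here do not say what it stands for. In bulk tissue, fewer cells of a type and less RNA per cell cannot be told apart.

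In neurons, each alpha and gamma messenger joins 1 variable exon, with its own promoter, to constant exons that all members of the cluster share, whereas a beta gene stands alone. Single neurons are known to use different sets of alternate members, while C-type members are used more broadly. The proteins bind the same members on other cells, and this recognition is known for its part in self-avoidance of neurites and in the survival of neurons and interneurons. Promoter choice depends on the insulator protein CTCF and on cohesin, and the gamma proteins are cut by the protease ADAM10.

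The libraries held between 25223733 and 30383672 assigned read pairs, with 25682 to 27178 genes detected in each. Levels are given as CPM, counts per 1000000 assigned. Egfr, the targeted receptor gene, lay between 3.601 and 7.33 CPM in the 6 knockout libraries (mean 5.77, SD 1.38) and between 19.2 and 41.6 CPM in the 6 control libraries (mean 30.8, SD 7.89), with no overlap. Other markers went against the titles. The level of Nr2f1, which encodes a factor with a known gradient falling from caudal to rostral cortex, ranged from 50.7 to 348 CPM in libraries labelled rostral and from 58.6 to 373 CPM in those labelled caudal. Xist and Y transcripts disagreed between the titled parts of knockout embryos 5 and 2 and control embryo 9, and control rostral 1 and control rostral 3 held both (Xist 230 and 278 CPM, summed Y transcripts 94.6 and 92.0 CPM). Hence n counts libraries or sums as titled, and "rostral" and "caudal" below mean the libraries labelled so. P-values measure the spread between these libraries. By these transcripts sex was not balanced between the groups. Knockout caudal 5, 2 and 7 held Xist (324, 427 and 376 CPM) with summed Y transcripts of at most 0.066 CPM. Control caudal 3 and 9 also held Xist (488 and 253 CPM), but control caudal 1 held Y transcripts (178 CPM) with Xist at 0. The part of this imbalance in the comparisons below was not tested.

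The shared exons decide what a member's value means. On GRCm39, plus strand, the 14 alpha members share 3 stretches at chr18:37289208-37289266, chr18:37292318-37292406 and chr18:37317999-37320710. The 22 gamma members share chr18:37958074-37958132, chr18:37966318-37966406 and chr18:37972956-37974923. Per the file headers, a fragment that overlapped several genes was divided evenly among them, so every alpha or gamma member received the same portion of each shared fragment. The lowest member in a library therefore sets an upper limit on that common portion, and a member's count less this limit is a lower limit on the fragments of its own exons, called its own part here. By this measure at most 59.2% ± 1.856 (SD, n = 12) of the alpha counts and at most 50.1% ± 1.06 (SD, n = 12) of the gamma counts were shared. The lowest gamma member was Pcdhgb8 in all 12 libraries, and the lowest alpha member was Pcdha1 or Pcdha8. Their own parts are near 0 by construction, and a level of their own cannot be told from these counts.

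The gamma cluster gave 79.4% of all clustered protocadherin counts, the beta cluster 11% and the alpha cluster 9.64%. Per kb of exon, the own parts summed over gamma members came to 163 CPM per kb (SD 18.9, n = 12). Beta came to 31.5 CPM per kb (SD 5.30) and alpha to at least 17.6 CPM per kb (SD 4.63). The gamma and beta values are not strict limits, because some members of these clusters overlap each other, as given below. The lowest gamma library, at 131 CPM per kb, stood above the highest beta library, at 42.2 CPM per kb.

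**Figure D1:**
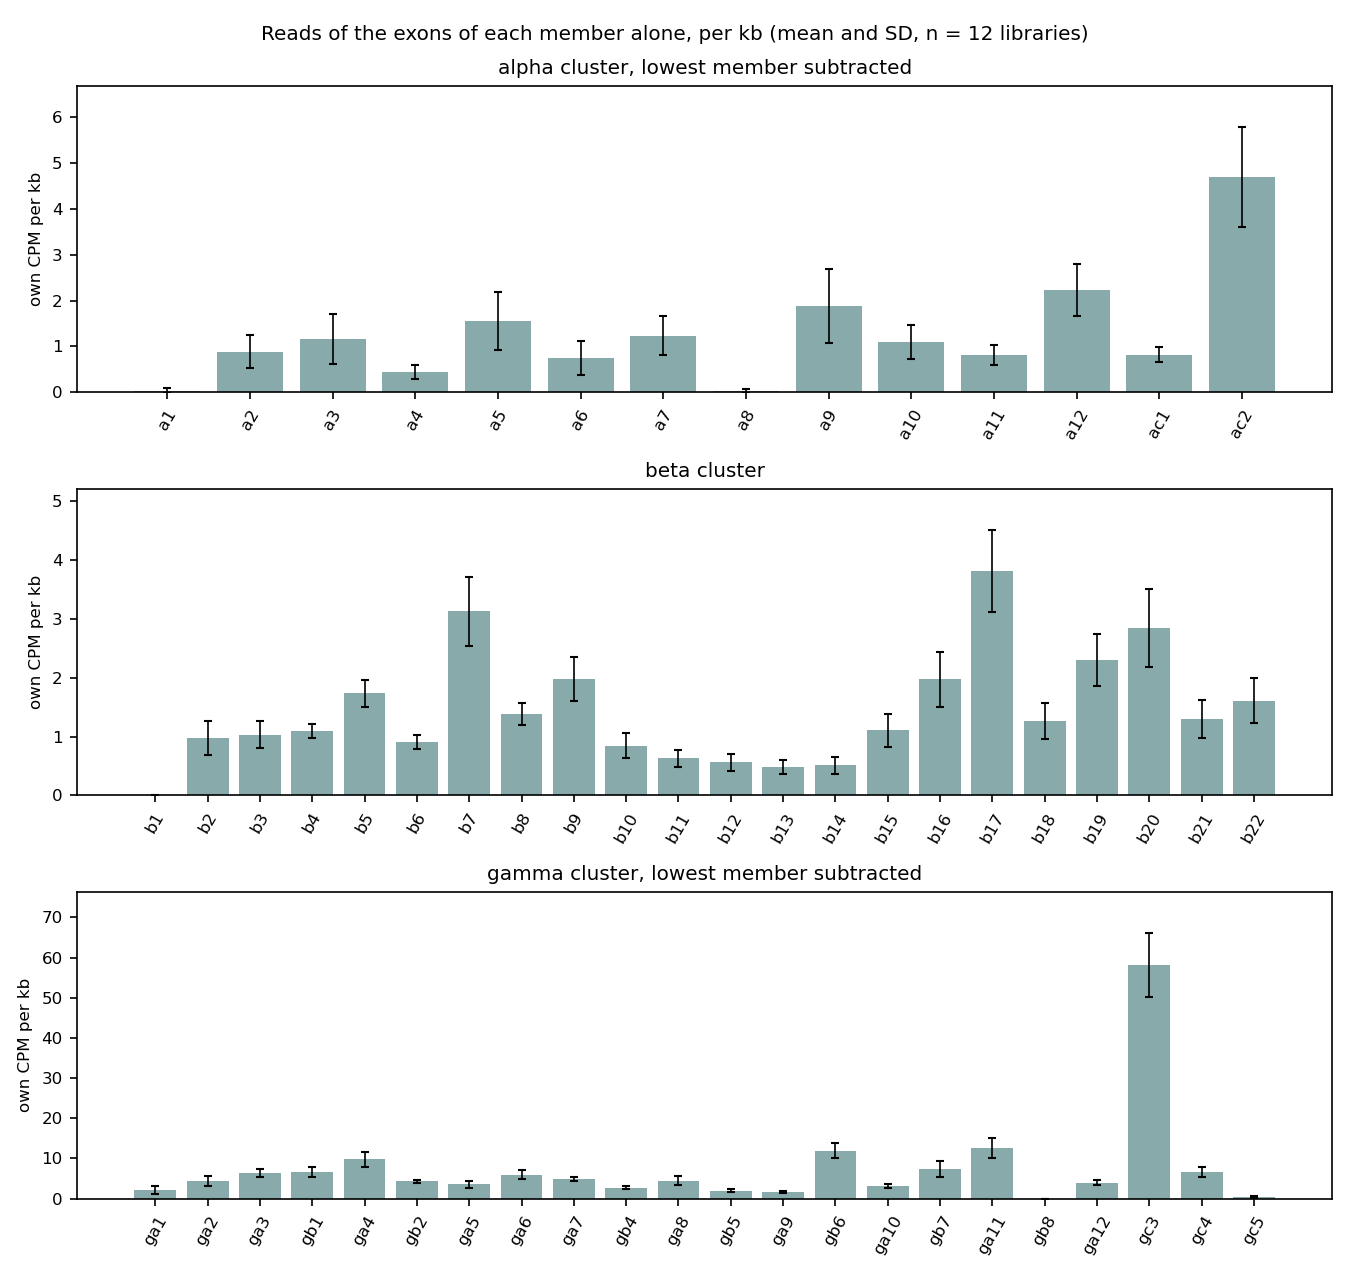
Own level of each member in CPM per kb of its own exons, with bars for the mean and lines for the SD over 12 libraries, in separate panels with their own vertical scales. Pcdhgc3 reaches 58.2 CPM per kb, and Pcdhac2 leads the alpha cluster at 4.68 CPM per kb.

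Among the C-type members, which lie at the 3' ends of the alpha and gamma variable exons, Pcdhgc3 was the most abundant clustered protocadherin. Its variable exon lies at chr18:37939417-37942796. Its level was 205, 257 and 175 CPM in knockout rostral 5, 2 and 7, 190, 208 and 251 CPM in knockout caudal 5, 2 and 7, 199, 226 and 189 CPM in control rostral 1, 3 and 9, and 234, 233 and 258 CPM in control caudal 1, 3 and 9. The genotypes overlapped throughout. Its own part was 58.2 CPM per kb (SD 7.88, n = 12) and held 40.4% ± 1.83 (SD) of the own counts of the gamma cluster, between 38.3% and 44.2% in every library. Pcdhgc4, the gamma C-type member known to be needed for neuronal survival, had 6.61 own CPM per kb (SD 1.21). Pcdhgc5, which in mouse cortex is known to rise after birth, had 0.43 own CPM per kb (SD 0.19) on 27.5 to 132 own counts. Of its 5508 own exonic bases 902 lie under the predicted gene Gm38182 on the same strand. Part of its fragments were thus divided with that gene, and its value is uncertain to that extent. Per kb, the lowest Pcdhgc3 library (46.4) lay above the highest Pcdhgc4 library (9.38), and the lowest Pcdhgc4 library (4.95) above the highest Pcdhgc5 library (0.88).

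Pcdhac2, a C-type member known for its role in the tiling of serotonergic axons, led the alpha cluster. Its level was 23.4, 27.9 and 14.6 CPM in knockout rostral 5, 2 and 7 and 12.7, 19.1 and 15.5 CPM in knockout caudal 5, 2 and 7. In the controls it was 19, 21.3 and 18.2 CPM in rostral 1, 3 and 9 and 18.3, 22.8 and 17.4 CPM in caudal 1, 3 and 9. The knockout libraries spread on both sides of the controls. Its own part held 29.9% ± 5.24 (SD, n = 12) of the alpha own counts, at 4.68 CPM per kb (SD 1.09). Pcdhac1 was lower, at 0.82 own CPM per kb (SD 0.16). The serotonergic marker list summed to between 0.28 and 1.83 CPM over the 4 groups.

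The alternate alpha members were close to each other in CPM because of the common portion. Pcdha12, Pcdha11 and Pcdha9 had the highest mean CPM, at 10.5 (SD 2.31), 8.79 (SD 2.15) and 9.66 (SD 3.14). Per kb of own exon the means were 2.23 for Pcdha12 (SD 0.57), 1.88 for Pcdha9 (SD 0.81) and 0.81 for Pcdha11 (SD 0.21), whose own exons are longer. The means of Pcdha12 and Pcdha9 differed by less than their spread between libraries. That spread does not judge the order of members measured in the same libraries. Pcdha1 and Pcdha8, the lowest, averaged 5.08 CPM (SD 1.35) and 5.06 CPM (SD 1.21). Pcdha4 shares 2410 of its 2904 own exonic bases with the predicted gene Gm37013 on the same strand, so part of its fragments were divided with that gene and its value is uncertain.

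Beta members share no constant exon, so no common portion was taken from their counts. Fragments that mapped to several places were divided, so a beta count can hold portions of fragments divided with other genes. Pcdhb17 led at 3.81 CPM per kb (SD 0.70, n = 12), followed by Pcdhb7 at 3.13 CPM per kb (SD 0.59) and Pcdhb19 at 2.30 CPM per kb (SD 0.45). The means of Pcdhb17 and Pcdhb7 differed by less than the SD of Pcdhb17. That SD is a spread between libraries and does not judge the order of members measured in the same libraries. Pcdhb20, chosen after its values were seen, lay between Pcdhb7 and Pcdhb19 at 2.85 CPM per kb (SD 0.66). Pcdhb12, the lowest tested beta member by CPM, had 0.56 CPM per kb (SD 0.14). Pcdhb1 had at most 1 count in any library and was the only member that did not pass the filter on low counts. Pcdhb21 and Pcdhb22 overlap each other, and their counts are uncertain to that extent.

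In the gamma A subset Pcdhga11 led at 12.6 own CPM per kb (SD 2.41), and the other members among the highest by CPM were Pcdhga3 at 6.43 (SD 0.95) and Pcdhga12 at 3.94 (SD 0.67), all per kb and over 12 libraries. Pcdhga4, chosen after its values were seen, stood at 9.82 (SD 1.89) per kb of the 1570 exonic bases that are its alone. Other exonic bases of Pcdhga4 overlap Pcdhgb1. They were left out of both lengths, but the divided fragments there stayed in both counts. The values per kb of Pcdhga4 and Pcdhgb1 may therefore be too high, and their ranks are not settled. Pcdhga8 and Pcdhgb4 also overlap each other, with the same limit. Pcdhga1 and Pcdhga9 were low, at 2.12 CPM per kb (SD 0.91) and 1.58 CPM per kb (SD 0.22). In the gamma B subset Pcdhgb6 stood at 11.95 own CPM per kb (SD 1.80), Pcdhgb7 at 7.34 (SD 1.97), Pcdhgb1 at 6.71 (SD 1.23) and Pcdhgb5 at 1.94 (SD 0.33). The means of Pcdhga11 and Pcdhgb6 differed by less than their spread between libraries, which does not judge their order.

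**Figure D2:**
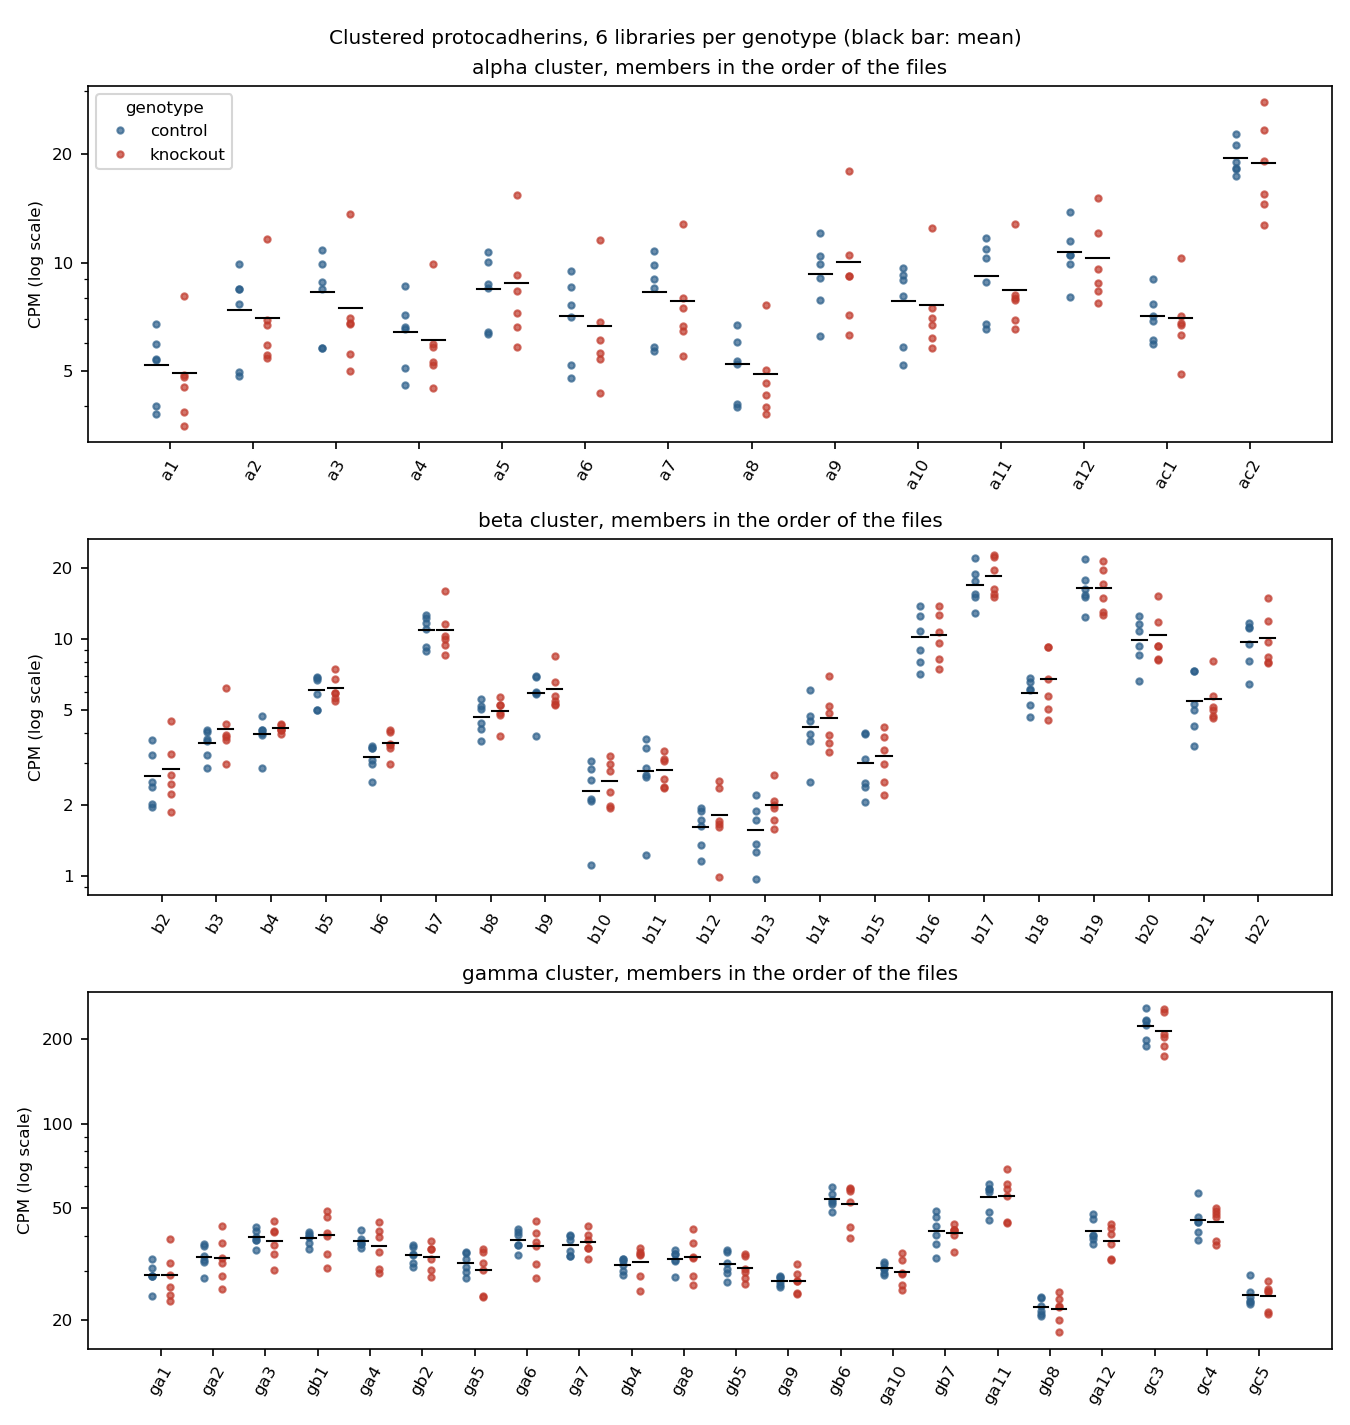
CPM of each member except Pcdhb1 on log axes, with 6 control libraries in blue and 6 knockout libraries in red and a black bar for each mean. The genotypes overlap for every member shown, and Pcdhgc3 stands between 175 and 258 CPM.

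Members of a cluster moved together between libraries. The alpha sum was 116, 187 and 93.7 CPM in knockout rostral 5, 2 and 7, and 82.6, 104 and 113 CPM in knockout caudal 5, 2 and 7. It was 124, 152 and 90.5 CPM in control rostral 1, 3 and 9, and 96.3, 135 and 123 CPM in control caudal 1, 3 and 9. Knockout rostral 2 was the highest library for all 14 alpha members, for 13 of the 21 tested beta members and for 14 of the 22 gamma members. Knockout rostral 7 was the lowest for 19 gamma members, and control rostral 9 the lowest for 14 beta members. The common portion ties alpha and gamma members to each other, but not beta members. The highest library exceeded the lowest 2.27-fold for the alpha sum, 1.87-fold for beta and 1.43-fold for gamma. The gamma sum was lowest in knockout rostral 7 (792 CPM) and knockout caudal 5 (845 CPM), the libraries with the largest shares of mitochondrial counts (7.25% and 4.77%, against 1.96% to 3.53% in the others), and the part of that share in the sums was not tested.

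**Figure D3:**
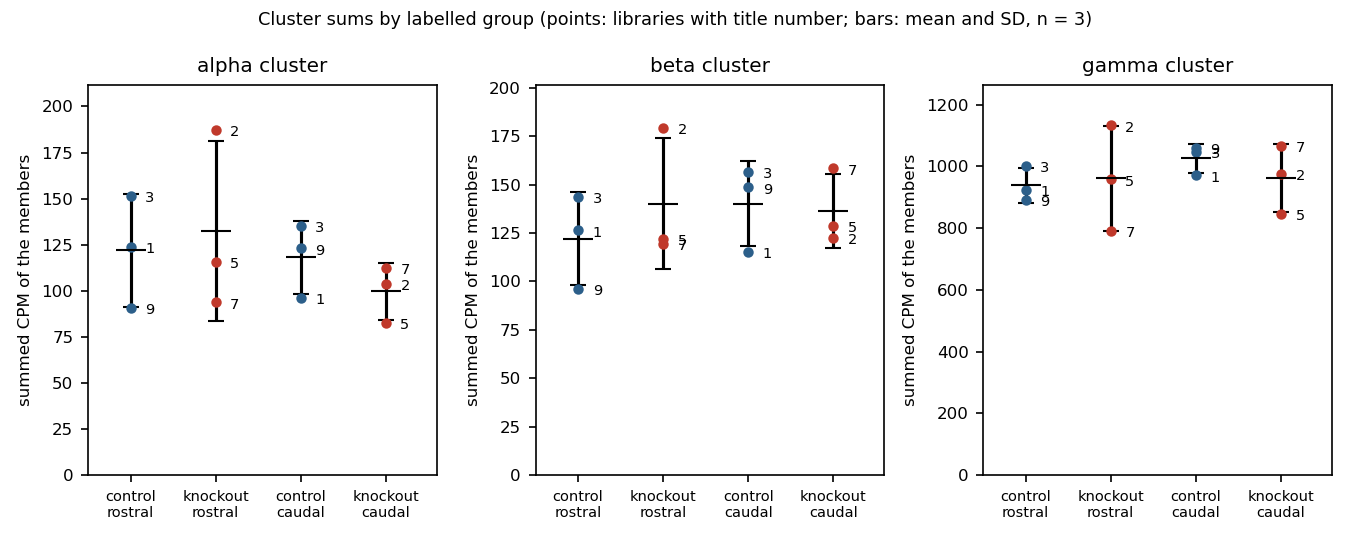
Summed CPM of each cluster by labelled group, with points for libraries and their title numbers and bars for the mean and SD of 3 libraries. Knockout rostral 2 is the highest point of each cluster, at 187, 179 and 1133 CPM.

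The comparison of genotypes asks whether deleting Egfr in the neural lineage went with a change in clustered protocadherin RNA. No member passed an adjusted p of 0.05 in any of 3 genotype comparisons (edgeR quasi-likelihood test, Benjamini-Hochberg over all genes). Over both parts, the alpha sum averaged 116 CPM (SD 37.1) over 6 knockout and 120 CPM (SD 23.1) over 6 control libraries, the beta sum 138 CPM (SD 24.7) against 131 CPM (SD 22.9), and the gamma sum 962 CPM (SD 129) against 982 CPM (SD 66.7). Each difference was smaller than the spread between libraries. A p that misses the threshold does not show that the genotypes are alike, so the intervals are given below.

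In the rostral libraries 0 of 57 tested members were called, against 0% of 17131 genes, and none had an unadjusted p under 0.05, against 1.05% of all genes. DESeq2 called none and gave none an unadjusted p under 0.05. The log2 fold change of knockout over control was positive for 53 of 57 members, against 50.2% of all genes. This tally rested on knockout rostral 2: without it 21 of 57 were positive and the median over members went from 0.12 to -0.06. With all libraries the cluster medians were 0.12 for alpha, 0.27 for beta and 0.08 for gamma. Pcdhb13 had the smallest p: its level was 1.58, 2.68 and 2.07 CPM in knockout rostral 5, 2 and 7 and 1.26, 1.73 and 0.97 CPM in control rostral 1, 3 and 9. Its groups overlapped, and the log2 fold change was 0.71 (SE 0.31, edgeR adjusted p = 1). The next were Pcdhb3 at 0.47 (SE 0.25), Pcdhb17 at 0.26 (SE 0.18) and Pcdhb15 at 0.43 (SE 0.30). All 22 gamma intervals lay between -0.39 and 0.58 on the log2 scale, and none reached 1 log2 unit, while 2 of 14 alpha and 8 of 21 beta intervals reached past 1. The groups of no member separated, against 1.45% of all genes with every knockout library higher and 4.75% with every one lower.

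In the caudal libraries 0 of 57 were called, against 0.0472% of 16964 genes, and none had an unadjusted p under 0.05 by edgeR or DESeq2, against 5.13% of all genes by edgeR. Here 10 of 57 log2 fold changes were positive, against 49.6% of all genes, and 47 were negative. Without knockout caudal 5 the positive values numbered 31, without control caudal 3 they numbered 21, and without knockout caudal 7 or control caudal 1 they numbered 5. With all libraries the cluster values had medians of -0.22 for alpha, -0.04 for beta and -0.07 for gamma. Pcdhac2 had the smallest p, with a log2 fold change of -0.30 (SE 0.18, edgeR adjusted p = 1). Pcdhb8 was 5.26, 5.27 and 5.68 CPM in knockout caudal 5, 2 and 7 and 4.19, 5.09 and 4.40 CPM in control caudal 1, 3 and 9. These groups did not overlap, as for 4.0% of all genes in that direction, and the log2 fold change was 0.26 (SE 0.16, edgeR adjusted p = 1). Pcdha3 was at -0.39 (SE 0.24) and Pcdhb6 at 0.32 (SE 0.20). Pcdhb8 was the only member whose groups separated in either direction, and all knockout libraries were lower for 6.14% of all genes. All 57 intervals lay between -0.98 and 0.84 on the log2 scale.

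Summing both titled parts of each embryo gave 3 sums per genotype. Again 0 of 57 were called, against 0.0317% of 18935 genes, and none had an unadjusted p under 0.05 by edgeR or DESeq2, against 3.40% of all genes by edgeR. The medians were -0.04 for alpha, 0.11 for beta and -0.0013 for gamma. All 21 tested beta members had a positive log2 fold change, from 0.02 to 0.38, against 49.8% of all genes; they move together between libraries and are not replicates. Without embryo 2, or without embryo 1, 16 of 21 were positive, and without embryo 9, 17 were. Pcdhb13 was at 0.38 (SE 0.19), Pcdhb3 at 0.24 (SE 0.12), Pcdhb6 at 0.23 (SE 0.12) and Pcdhb17 at 0.15 (SE 0.08), each with an edgeR adjusted p of 1. The Pcdhb6 sums did not overlap, as for 3.07% of all genes in that direction, and no other member separated. For Pcdhgc3 the log2 fold change was -0.03, with a 95% interval from -0.19 to 0.12.

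**Figure D4:**
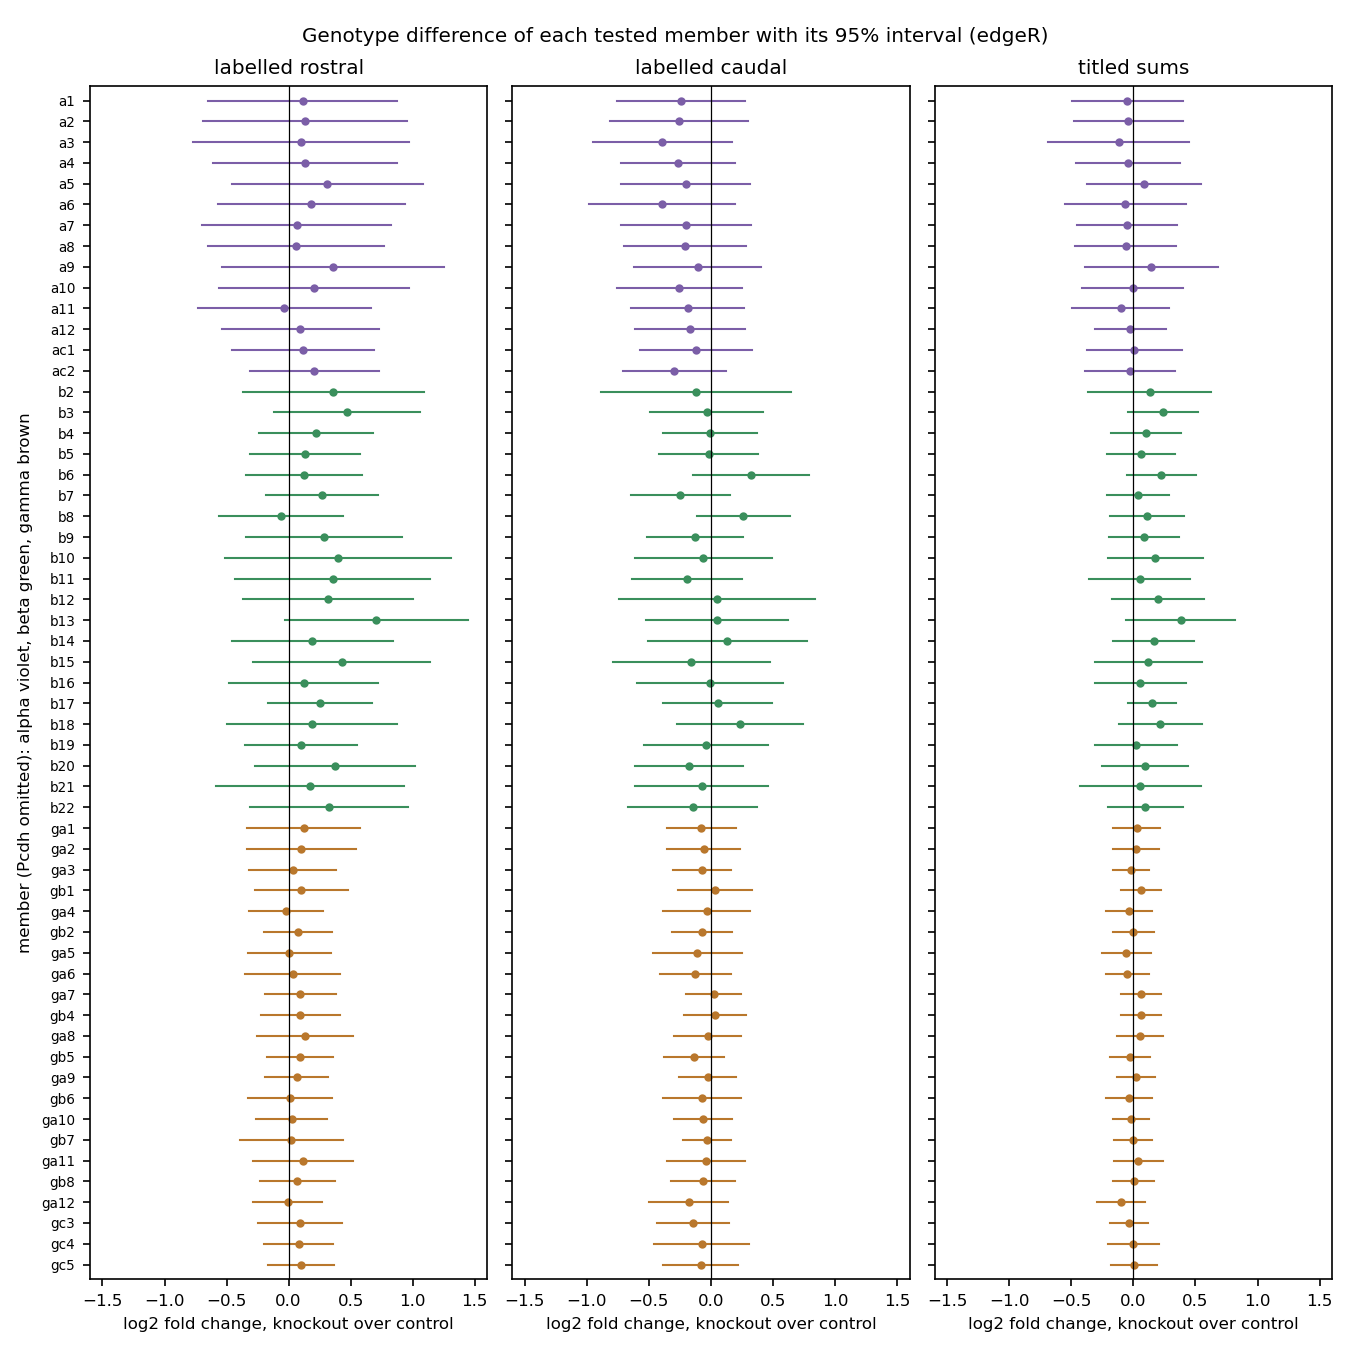
Log2 fold change of knockout over control for each tested member, with lines for the 95% interval from edgeR, for rostral libraries, caudal libraries and titled sums. Gamma intervals in the rostral panel stay between -0.39 and 0.58, and every interval in each panel crosses 0.

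The parts were compared over all 12 libraries with genotype in the model, subject to the conflict between labels and markers given above. No member was called, against 0% of 17430 genes. Pcdhb14 alone had an unadjusted p under 0.05, against 9.89% of all genes, while DESeq2 gave 2 members such a p and called none. Its level was 5.22, 3.65 and 6.97 CPM in knockout caudal 5, 2 and 7 and 3.97, 4.50 and 6.08 CPM in control caudal 1, 3 and 9. In the rostral libraries it was 3.33, 4.86 and 3.94 CPM in knockout 5, 2 and 7 and 3.70, 4.74 and 2.50 CPM in control 1, 3 and 9. The parts overlapped, with a log2 fold change of caudal over rostral of 0.43 (SE 0.20, edgeR adjusted p = 0.5003). Pcdhb11 was at 0.40 (SE 0.20), Pcdhgb5 at 0.15 (SE 0.08) and Pcdhb17 at 0.23 (SE 0.14). The value was positive for 34 of 57 members, against 50.3% of all genes. No member separated the parts, against 0.115% of all genes with every caudal library higher and 0.235% with every one lower. All 14 alpha members had a negative value, with a median of -0.19, but 9 of 14 did without embryo 2, with a median of -0.03, and the beta and gamma medians were 0.11 and 0.08.

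The interaction asks whether the genotype difference itself differed between the parts. It called 0 of 57 members, against 0% of 17734 genes, and gave none an unadjusted p under 0.05, against 2.74% of all genes; DESeq2 likewise gave none. The value was positive for 3 of 57 members, against 49.0% of all genes, and negative for 54. Without embryo 2 it was positive for 24, with a median over members of -0.01 in place of -0.20, and without embryos 9, 5 or 3, each left out in turn, it was positive for 11, 10 and 5. With all libraries the cluster values had medians of -0.39 for alpha, -0.27 for beta and -0.14 for gamma. The smallest p belonged to Pcdhb7 at -0.51 (SE 0.27), Pcdhb13 at -0.65 (SE 0.39), Pcdhac2 at -0.50 (SE 0.31) and Pcdhb3 at -0.50 (SE 0.31), each with an edgeR adjusted p of 0.998. A difference between the parts in the genotype effect was thus not shown by this test.

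The shares of members within a cluster also varied between libraries, and those described next were chosen after their values were seen. For Pcdhgb7 the share of the gamma own counts was 2.68%, 2.87% and 6.04% in knockout rostral 5, 2 and 7 and 5.88%, 3.72% and 3.32% in knockout caudal 5, 2 and 7. In the controls it was 2.68%, 2.92% and 6.42% in rostral 1, 3 and 9 and 5.01%, 3.72% and 3.03% in caudal 1, 3 and 9. High and low libraries occurred in both genotypes and both labelled parts. The Pcdha12 share of the alpha own counts ranged from 7.66% to 16.2%, and the Pcdhac2 share from 24.0% to 38.5%.

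**Figure D5:**
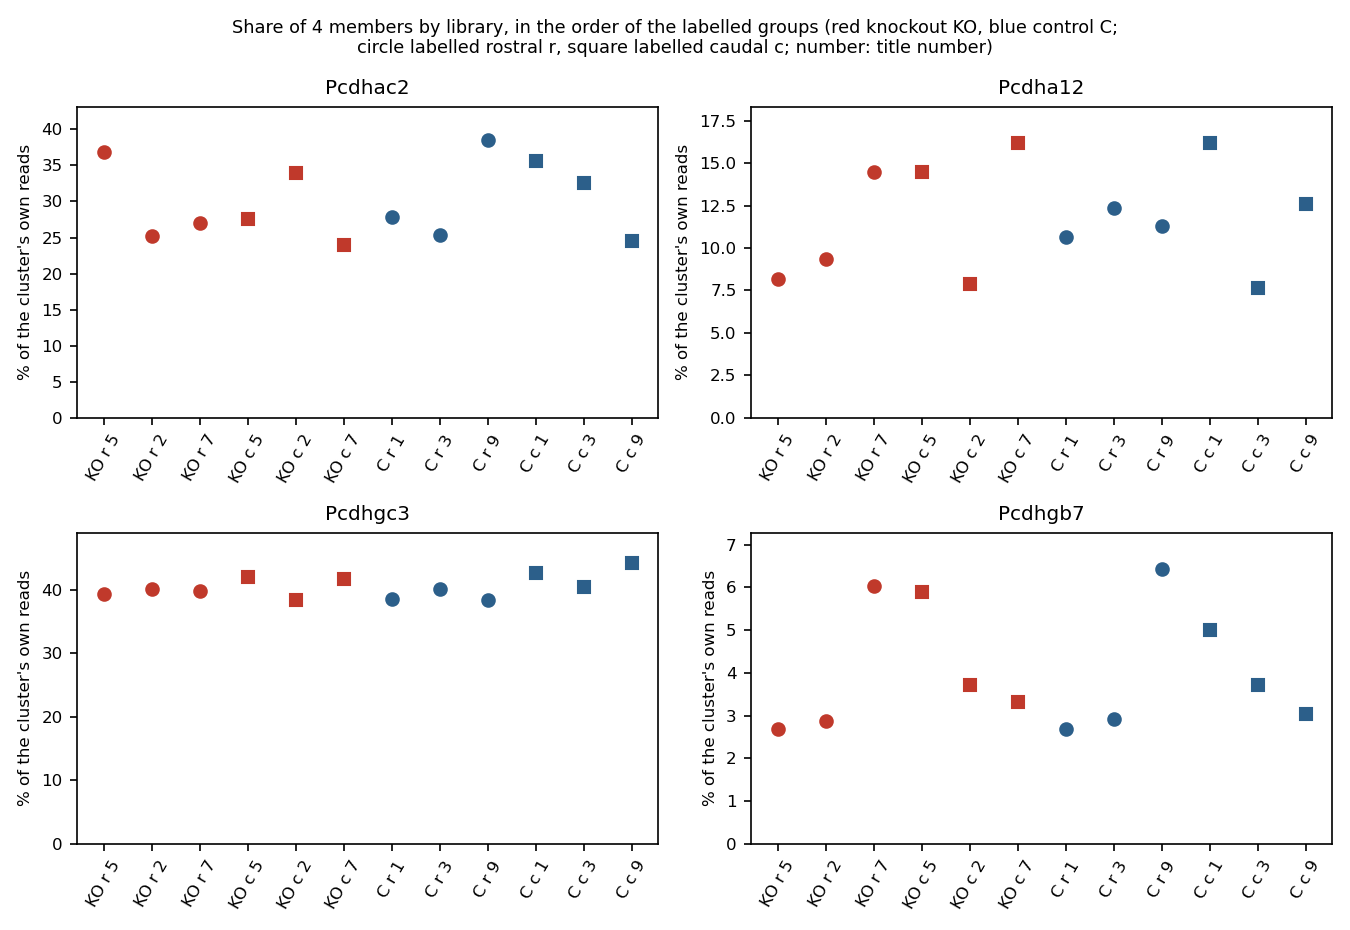
Share of the own counts of its cluster held by Pcdhac2, Pcdha12, Pcdhgc3 and Pcdhgb7 in each of 12 libraries, in percent, with red for knockout, blue for control, circles for rostral and squares for caudal. Pcdhgb7 spans 2.68% to 6.42%, and Pcdhgc3 spans 38.3% to 44.2%.

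Other genes of the pathway gave no call. Of 20 regulators of the clusters, among them Ctcf, the cohesin loader Nipbl and the silencing factor Smchd1, 0 passed in any of the 5 comparisons. At most 0.0472% of all genes passed in any of them, so this count says little about the regulators. All 20 had a negative log2 fold change in the rostral libraries, with a median of -0.09, where 50.2% of all genes were positive. In the caudal libraries 15 of 20 were positive, with a median of 0.06, against 49.6% of all genes. In caudal over rostral libraries 5 of 20 had an unadjusted edgeR p under 0.05, against 9.89% of all genes. Rest, a repressor of neuronal genes, was lower in every knockout sum than in every control sum, as were 5.22% of all genes, at a log2 fold change of -0.27 (SE 0.09, edgeR adjusted p = 1). Nipbl was at 0.28 (SE 0.10, edgeR adjusted p = 0.450) in caudal over rostral libraries.

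Of 21 partners of the proteins, 0 passed in any comparison, against at most 0.0472% of all genes, so this count says little about the partners. Ptk2b, a kinase known to bind the shared cytoplasmic domain, had a log2 fold change of -1.09 (SE 0.33, edgeR adjusted p = 0.414) in caudal over rostral libraries. Adam10, the protease named above, was at 0.12 (SE 0.05, edgeR adjusted p = 0.451) in the same comparison.

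Of 12 protocadherins outside the clusters, 0 passed in any comparison, against at most 0.0472% of all genes. Pcdh19, an X-linked adhesion protein, was 24.0, 82.1 and 41.5 CPM in knockout rostral 5, 2 and 7 and 38.3, 69.3 and 29.5 CPM in control rostral 1, 3 and 9. In the caudal libraries it was 21.8, 21.9 and 29.3 CPM in knockout 5, 2 and 7 and 42.2, 36.2 and 51.0 CPM in control 1, 3 and 9. The log2 fold change was -0.81 (SE 0.17, edgeR adjusted p = 0.483) in the caudal libraries, where the groups did not overlap, as for 6.14% of all genes in that direction. The uneven Xist and Y transcripts given above touch this comparison, and their part in the Pcdh19 values was not tested. Pcdh15 was at -0.72 (SE 0.18, edgeR adjusted p = 0.657) there, and Pcdh20 at -0.86 (SE 0.25, edgeR adjusted p = 0.414) in caudal over rostral libraries.

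Cell type markers were read beside these values. The radial glia list (6 genes) summed to between 1120 and 1649 CPM and the cortical projection neuron list (6 genes) to between 1480 and 2449 CPM over all libraries, so both sets of transcripts were present in each. The ventral forebrain and striatum list was uneven, from 12.7 CPM in a knockout caudal library to 189 CPM in a control caudal library. In the titled sums all 6 GABAergic interneuron, all 6 ventral forebrain and striatum and all 6 meninges and vessel markers had a negative log2 fold change. Their medians were -0.31, -0.51 and -0.26, and none was called. Of all genes 49.8% were positive and 0.0317% were called in the sums. Of the 4 microglia markers 3 were positive in the sums, with a median of 0.11; all 4 were positive in the rostral libraries, with a median of 0.59, and all 4 negative in the caudal libraries, with a median of -0.29, none of them called. The radial glia and cortical projection neuron lists had medians of 0.06 and 0.05 in the sums, and the 4 tested choroid plexus markers were all negative, with a median of -1.15. Of 5 tested oligodendrocyte precursor markers, Olig1 fell by 1.26 (SE 0.11, edgeR adjusted p = 0.00810) and Olig2 fell by 1.33 (SE 0.12, edgeR adjusted p = 0.00764) in the sums. The others were not called: Sox10 at -0.47 (SE 0.14), Pdgfra at -0.24 (SE 0.11) and Cspg4 at 0.12 (SE 0.18). In the rostral libraries Pdgfra was at 0.18 (SE 0.20) and Cspg4 at 0.53 (SE 0.37). That list summed to between 36.1 and 63.4 CPM in knockout caudal and between 83.9 and 126 CPM in control caudal libraries, and to between 48.0 and 88.0 CPM in knockout rostral and between 77.9 and 85.8 CPM in control rostral libraries. The choroid plexus list ran from 0.41 to 57.2 CPM and was highest in a control rostral library. The part of these cell types in the clustered protocadherin values was not tested.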

How the data were processed

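RNA-seq was deposited as 12 tables of gene counts. Per the file headers, the authors counted read pairs per gene with featureCounts in reverse-stranded mode, with multi-mapping and multi-overlapping fragments divided into fractions, so the deposited values are estimated counts, against GENCODE mouse release 28 on GRCm39. STAR 2.7.8a, featureCounts 2.0.3 and GRCm39 are named per the submitters' processing notes. Members and gene lists were chosen with earlier results of these data known.

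CPM was computed as counts per 1000000 of the column total. For the tests, counts were rounded and fitted in edgeR 4.0.16 (TMM, filterByExpr, robust quasi-likelihood, Benjamini-Hochberg over all genes, threshold 0.05), with knockout against control in rostral libraries, in caudal libraries and in titled sums, and caudal against rostral and the interaction over 12 libraries. The procedure was also run on simulated counts, drawn independently with a single dispersion for all genes. That run does not speak for power or error in these data. Members named were the C-type members, the 3 highest and 2 lowest by mean CPM in each subset, and up to 4 with the smallest p per comparison. Alternatives were DESeq2 1.42.0 and its size factors, no filter, the own part, each replicate left out, and blocks.

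The titles pair rostral and caudal libraries by embryo number. Over 1000 variable genes the deviations of titled pairs from their group means correlated at -0.446, -0.603 and -0.496 (knockout 5, 2 and 7) and -0.229, -0.687 and -0.6 (control 1, 3 and 9). Sequences of the members are not used here.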

Additional observations from a re-analysis of the deposited data

How the results depend on the processing

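No clustered protocadherin was called in any of 60 alternative counts over the 5 comparisons, and the lowest adjusted p of a member in any of them was 0.248. Of all genes tested, between 0 and 113 were called per setting, the most in the sums with no filter (of 36393 genes). For 39 results of single members, all 469 alternative values stayed on the same side of the threshold. No member was called in the main fits and many alternatives hold fewer libraries, so this was likely beforehand and does not show stability. With the replicate block, which pairs the libraries by titled embryo, 0 members were called in the comparison of parts and in the interaction. Leaving out each replicate in turn also gave 0 in every comparison, as did blocking on the number before # in the titles, under which Pcdha3 alone had an unadjusted p under 0.05 in the caudal libraries. Over all alternatives at most 3 (rostral), 5 (caudal), 1 (sums), 7 (parts) and 9 (interaction) members had such a p, and 21 to 55, 5 to 31, 19 to 53, 24 to 46 and 3 to 24 were positive. The largest counts came without embryo 7 (rostral and interaction), embryo 1 (caudal) and embryo 2 (parts). The share of all genes with such a p in these settings is not given here, so whether these counts exceed it cannot be told. The ratio of knockout to control sums ranged from 0.843 to 1.07 for alpha (0.966 as reported), from 0.992 to 1.14 for beta (1.055) and from 0.932 to 1.01 for gamma (0.979). Each moved by less than the SD of single knockout libraries divided by the control mean. That SD is wide for a ratio of means, so staying within it does not show that the ratios are stable. Without knockout rostral 2 alone, an alternative chosen after seeing the data, the ratios were 0.847, 0.992 and 0.944, so the beta ratio crossed 1. With the second-lowest member as the common portion, the shared share of gamma counts was 55.2%, by construction higher. Leaving out control rostral 1 and 3 does not touch the caudal comparison. Groups of 3 libraries, some at odds with their titles, limit every interval.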

Other observations

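The 4 libraries with a Pcdhgb7 share of 5.01% or more of the gamma own counts were labelled knockout rostral 7 and knockout caudal 5, and, among the controls, rostral 9 and caudal 1, while the other 8 lay between 2.68% and 3.72%. The 4 carry 4 different embryo numbers, and of the numbers before them in the titles knockout caudal 5 and control caudal 1 carry 4858 and the others 4692. Both knockout libraries among them held Xist (450 and 324 CPM) with summed Y transcripts under 0.07 CPM, and both control libraries held Y transcripts (172 and 178 CPM) with Xist at 0. The same pattern of Xist without Y transcripts was also held by knockout caudal 2 (427 CPM) and knockout caudal 7 (376 CPM), where the Pcdhgb7 share was 3.72% and 3.32%. Control caudal 3 held it too (488 CPM), at a share of 3.72%. Knockout rostral 5 and 2 held Y transcripts (152 and 162 CPM) with Xist at 0.1465 and 0.070 CPM. Their shares were low, at 2.68% and 2.87%. The split of the Pcdhgb7 shares was seen in the data and has no test.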
